A study of Mus musculus with 2 samples.

Results

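Potassium channel genes were followed across the cell classes of the embryonic mouse forebrain by single-cell RNA sequencing. Every gene symbol of the deposited gene list that starts with Kcn, goes on with letters and a number, and does not end in os or -ps was taken, which gave 96 of 32285 genes. Of these, 93 code for channel pore subunits or auxiliary proteins, and 3 are noncoding RNAs that share the prefix (Kcnq1ot1, Kcnmb4os1 and Kcnmb4os2). At least 1 UMI (unique molecular identifier, the tag that counts a captured mRNA molecule) was found in kept cells for 94 of the 96. Kcnj1 and Kcnk16 had none, and 14 members, these included, had fewer than 20. By role, the list held 17 voltage-gated pore subunits of the Kcna, Kcnb, Kcnc and Kcnd groups, 10 electrically silent modifiers, 5 Kcnq genes, 8 EAG-family genes (Kcnh), 8 calcium- or sodium-activated channels, 15 inward rectifiers (Kcnj), 14 leak channels (Kcnk) and 16 auxiliary subunits.

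Potassium channels let potassium leave the cell, pull the membrane towards its resting potential and end the action potential. Leak channels and inward rectifiers are open near rest, voltage-gated channels open on depolarisation, and calcium- or sodium-activated channels open after activity. Pore subunits assemble with relatives and with auxiliary proteins such as KChIPs (Kcnip), BK beta subunits (Kcnmb) and Kvbeta proteins (Kcnab), so that a cell's set of subunits decides which currents it can carry. Glial cells are known for leak and inwardly rectifying channels, and neurons acquire voltage-gated currents while they migrate and mature.

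The cells came from mouse embryos with the genotype label WT, taken at embryonic day 16.5. The paper gives the source as the dorsal telencephalon, the part of the forebrain that forms the cerebral cortex. The tissue label reads brain hemispheres, and some cells carried striatal markers, so the region dissected is not certain. The labels name 2 libraries, here WT replicate 1 and WT replicate 6, and give no further genotype for either. They belong to a series on Emx1-Cre driven loss of the histone methyltransferase gene Dot1l, whose knockout embryos were not analysed here. The labels do not say whether the libraries are littermates or which alleles these WT embryos carry.

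The deposited matrices held 14136 and 13046 barcodes with 74930397 and 68964234 UMIs, and 7219 and 7352 cells were kept after filters on depth, mitochondrial UMIs and doublets. The libraries shared 59 barcodes, 26 of them among cells that passed the depth and mitochondrial filter. Cells were assigned to 11 classes by marker gates that used no potassium channel or partner gene, with thresholds set after marker levels were seen, and 43.9% and 39.0% of kept cells met no gate. The gates gave, in replicates 1 and 6, 279 and 283 radial glia, 270 and 285 intermediate progenitors (IPCs), 607 and 734 newborn, 1021 and 1094 intermediate and 770 and 896 later excitatory neurons, 622 and 677 interneurons, 131 and 148 striatal neurons, 71 and 69 mural cells and 47 and 29 endothelial cells. Excitatory stages were set by the balance of newborn markers (Neurod1, Nhlh1, Unc5d, Rnd2, Sema3c) and later markers in a cell. The later markers were Mef2c, Bcl11b, Fezf2, Tle4, Foxp2, Tbr1, Sox5, Hs3st4 and Crym. The paper uses TBR1 as a label of preplate and layer VI neurons. Later neurons may therefore differ from other classes in layer as well as in stage, and the part of layer was not tested. Rises and falls between stages compare classes and follow no cell over time. Microglia (16 and 17 cells) and erythroid cells (216 and 250) served as classes in which most neuronal channel genes should be absent. Mural cells carried 10616 and 11329.8 CPM of 8 mural markers against 7.90 and 2.07 CPM in endothelial cells, but also 457 and 449 CPM of 5 fibroblast markers, of which Dcn and Lum were at 0, and 347 and 308 CPM of 7 endothelial markers. The part of these other cell types in the mural levels was not tested.

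UMIs were summed over the cells of a class within a library and are given as CPM, the counts scaled to a fixed total of UMIs per sum, always in the order replicate 1 and then replicate 6. CPM of different genes are not compared, because the counts come from 3′ ends and may include introns. These sums were compared between classes with the quasi-likelihood test of edgeR, p-values being adjusted over every tested gene by Benjamini-Hochberg, and a gene was called at an adjusted p under 0.05. All p-values rest on the spread between 2 libraries. Successive comparisons share a class, so their results are not independent of each other. A gene with few or no UMIs in a class passed the filter on low counts only through the other class. Its direction was then set in advance, and the counts of members called and their medians include such genes.

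Summed over the 93 channel and auxiliary genes, the level was 2164 ± 13.5 CPM (SD, n = 2) in radial glia and 2246 ± 72.4 in IPCs. It was 4151 ± 44.9 in newborn, 4291 ± 97.7 in intermediate and 4699 ± 67.4 in later excitatory neurons. Interneurons stood at 3948 ± 211 and striatal neurons at 3005 ± 65.3. Every neuron class thus lay above both progenitor classes in both libraries, while mural cells (1608 ± 34.0) lay below them and above endothelial cells (270.4 ± 59.8). Genes with many UMIs weigh most in such sums, which therefore do not show a change of the whole list. Kcnq3 alone had a mean of 71.2 CPM in IPCs and 884 CPM in newborn neurons. The genes at 10 CPM or more numbered 20 of the 93 in IPCs and 26 in newborn neurons. The background classes were lowest or scattered, with 149 and 111 CPM in erythroid cells and 525 and 108 in the few microglia. The families moved unequally. Kcnq genes summed to 73.5 ± 7.59 CPM in radial glia and 1564 ± 88.7 in later excitatory neurons, whereas the voltage-gated group had its highest sum among the gated classes in interneurons (1604 ± 22.8).

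Of the 74 channel and auxiliary genes with at least 20 UMIs in the gated classes, 14 had their highest mean level in interneurons, 14 in later excitatory neurons and 13 in striatal neurons. Radial glia held the highest level of 7 genes, mural cells of 7, newborn neurons of 5, endothelial cells of 5, and IPCs, intermediate neurons and microglia of 3 each. No class therefore held the highest level of most members. The minimum of 20 UMIs was taken over all gated classes together, so a class with few cells can hold the highest level from few UMIs. In striatal neurons this concerns genes such as Kcnd1 and Kcnj9, at 1.96 CPM, and Kcnk4, at 1.35 CPM.

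**Figure D1:**
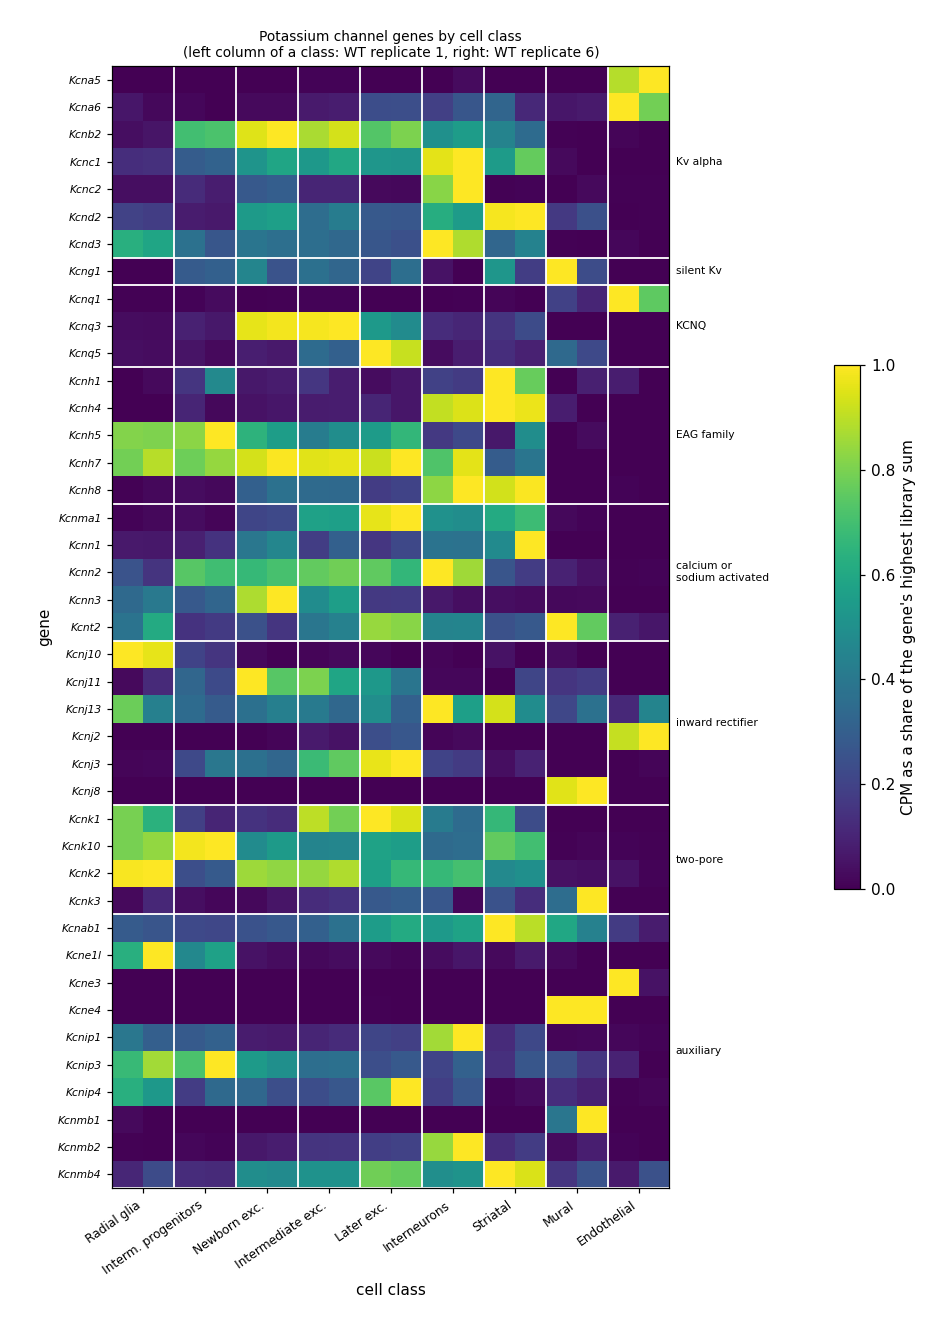
Heat map of 41 channel and auxiliary genes with a mean of at least 10 CPM in 1 of the 9 classes drawn, with genes in rows by family and cell classes in columns (left column WT replicate 1, right column WT replicate 6). Colour gives CPM as a share of the gene's own highest library sum. Most genes have their bright cells in both libraries of a class, such as Kcnj8 in mural cells, Kcnc2 in interneurons and Kcnj10 in radial glia, while Kcne3 is bright in 1 endothelial library only.

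The comparison of IPCs with radial glia asked which channels differ between the neuron-producing progenitor and its parent cell. Of 34 members tested, 10 were higher and 9 lower in IPCs, where 15.4% of all 11867 tested genes were higher and 18.7% lower. Their median log2 difference was -0.09, beside 0.00 over all genes. The delayed rectifier Kcnb2 was higher in IPCs, and 3 of 4 leak channels tested were lower.

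Kcnb2 (chr1:15286925-15723751, build GRCm38.p6, which is mm10) gave 407 and 419 CPM in IPCs and 20.9 and 32.9 CPM in radial glia (log2 difference 3.98 ± 0.17 (SE), adjusted p = 6.17e-07). Both libraries thus showed Kcnb2 higher in IPCs without overlap. After each cell was thinned to 2000 UMIs, Kcnb2 was seen in 38.0% (Wilson interval 34.0 to 42.1%) of IPCs and 3.17% (Wilson interval 1.99 to 5.01%) of radial glia (unthinned 59.8% and 8.36%), with 1.07% in erythroid cells as the background from free RNA. The intervals cover counting error only.

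Among the other voltage-gated pores, Kcnc2, which forms fast delayed rectifiers, was higher in IPCs at 61.2 and 40.3 CPM against 19.5 and 19.0 CPM (log2 difference 1.45 ± 0.24 (SE), adjusted p = 0.00132). Kcnd2, the pore of an A-type current in dendrites, was lower at 74.9 and 65.6 CPM against 191 and 176 CPM (log2 difference -1.33 ± 0.12 (SE), adjusted p = 4.57e-05), as was Kcnd3 (-0.87 ± 0.16, adjusted p = 0.00269). The silent modifier Kcng1, whose subunit alters Kcnb channels, had 34 UMIs in IPCs and 0 in radial glia, at least 9.13-fold higher against a floor of 3 counts over both libraries (adjusted p = 0.00116). IPCs thus had more Kcnb2, Kcnc2 and Kcng1 transcripts and fewer of both Kcnd genes. Kcnc1, a fast delayed rectifier like Kcnc2, was higher too (1.21 ± 0.27, adjusted p = 0.0079), a call not made by DESeq2 (adjusted p = 0.0953). Kcnh7, an ERG-type channel gene, gave 449.8 and 486 CPM against 454 and 514 CPM and was not called (adjusted p = 0.993).

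The inward rectifiers split. Kcnj3, a pore subunit of G protein-gated channels, rose from 2.43 and 3.24 CPM in radial glia to 36.7 and 66.4 CPM in IPCs (log2 difference 4.196 ± 0.41 (SE), adjusted p = 6.24e-05). Kcnj10 (chr1:172341210-172374085), the potassium-buffering rectifier of glial cells, fell from 51.6 and 49.6 CPM to 10.4 and 7.91 CPM (log2 difference -2.41 ± 0.21 (SE), adjusted p = 3.03e-05). Radial glia held its highest level among the 11 classes. Kcnj11, the pore of the neuronal ATP-sensitive channel, was higher in IPCs by 1.92 ± 0.63 on the log2 scale (adjusted p = 0.0419), a call that DESeq2 did not make (adjusted p = 0.22).

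Of the leak channels, Kcnk2 (chr1:189207930-189402782), which responds to membrane stretch and lipids, fell from 224 and 227 CPM to 54.1 and 64.4 CPM (log2 difference -1.88 ± 0.12 (SE), adjusted p = 4.82e-06). Kcnk1 and Kcnk5, a pH-sensitive leak channel, fell as well, with log2 differences of -2.19 ± 0.48 and -3.08 ± 0.58 (adjusted p = 0.00668 and 0.00292), though DESeq2 did not call Kcnk1 (adjusted p = 0.0524). Kcnk10, the closest relative of Kcnk2, was slightly higher instead at 266 and 271 CPM against 215 and 228 CPM (log2 difference 0.33 ± 0.11 (SE), adjusted p = 0.0396). With DESeq2 this rise of Kcnk10 was not called (adjusted p = 0.201).

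Kcnn2, a small-conductance calcium-activated channel gene, was higher in IPCs at 182 and 170.4 CPM against 62.8 and 37.1 CPM (log2 difference 1.87 ± 0.20 (SE), adjusted p = 1.05e-04), and the sodium-activated Kcnt2 was lower (-1.59 ± 0.27, adjusted p = 0.00182). Kcnq3, a subunit of the M-current that limits repetitive firing, was higher (1.42 ± 0.20, adjusted p = 4.83e-04). Kcnma1, with 7.05 and 2.37 CPM against 1.95 and 4.17 CPM, did not pass the filter on low counts. Kcnip4, which binds Kcnd channels, was lower at 87.1 and 166 CPM against 307 and 259.6 CPM (log2 difference -1.12 ± 0.24 (SE), adjusted p = 0.00636), the IPC values of the libraries lying far apart, and was not called by DESeq2 (adjusted p = 0.0721). Of the auxiliary genes, 5 of the 6 tested were not called. Cycling markers summed to 1566 and 1035 CPM in IPCs and 2313 and 1932 CPM in radial glia, and when only progenitors without a UMI of these markers were compared, 15 members were called (6 higher and 9 lower of 23 tested), 13 of them shared with the full comparison. The share of all genes called among these progenitors was not counted, so the overlap has no background beside it.

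The step from IPCs to newborn excitatory neurons asked which channels differ between these classes. It brought 19 members up and 7 down of 39 tested (all genes: 48.0% called, 23.3% up and 24.7% down). The median log2 difference of the members was 0.57 and that of all 12307 genes 0.00. All 3 Kcnq genes tested and 6 of 9 voltage-gated pores rose (1 of the 6 without a call by DESeq2), and none of these 2 groups fell. In replicates 1 and 6, 106 and 138 IPCs had no UMI of the cycling markers, so the step is not division against none. With these IPCs alone 22 members were called (16 higher and 6 lower of 38 tested), 22 of them shared with the full comparison. The share of all genes called was not counted there.

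Kcnq3 (chr15:65986374-66286636) rose from 82.7 and 59.7 CPM to 875 and 892 CPM (log2 difference 3.74 ± 0.15 (SE), adjusted p = 1.05e-08). At 2000 UMIs per cell it was seen in 64.7% (Wilson interval 62.1 to 67.3%) of newborn neurons and 9.22% (Wilson interval 7.08 to 11.9%) of IPCs, against 1.87% of erythroid cells (unthinned 87.0%, 22.7% and 3.22%). Its relative Kcnq5 rose less, from 53.0 and 28.1 CPM to 89.6 and 70.3 CPM (log2 difference 1.08 ± 0.23 (SE), adjusted p = 0.00246).

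Kcnd2 (chr6:21215346-21729805), low in IPCs, rose from 74.9 and 65.6 CPM to 525 and 545 CPM (log2 difference 3.04 ± 0.11 (SE), adjusted p = 6.06e-09), above its radial glia level of 191 and 176 CPM. Kcnc2 rose from 61.2 and 40.3 CPM to 139 and 149.8 CPM (log2 difference 1.61 ± 0.15 (SE), adjusted p = 7.51e-06), and Kcnb2 from 407 and 419 CPM to 554 and 583 CPM (log2 difference 0.57 ± 0.09 (SE), adjusted p = 4.10e-04). Kcna1, an axonal low-threshold channel gene, had 44 UMIs in newborn neurons and 1 in IPCs (ratio 22.9, exact counting interval 3.90 to 925, adjusted p = 9.09e-04). Kcnc1 rose less, by 0.99 ± 0.17 (adjusted p = 6.13e-04).

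The calcium-activated channels rose in part. Kcnma1, the BK channel pore, went from 7.05 and 2.37 CPM to 41.6 and 44.1 CPM (log2 difference 3.27 ± 0.28 (SE), adjusted p = 3.25e-06), and its beta subunits Kcnmb2 and Kcnmb4 rose by 2.48 ± 0.30 and 2.09 ± 0.19 (adjusted p = 5.56e-05 and 6.21e-06). Kcnn3, a small-conductance channel gene, rose from 38.6 and 45.5 CPM to 122 and 139 CPM (log2 difference 1.74 ± 0.12 (SE), adjusted p = 5.81e-07), and Kcnn1 rose by 1.99 ± 0.38 (adjusted p = 0.00132). Their relative Kcnn2 gave 164 and 174 CPM in newborn neurons and was not called (log2 difference 0.05 ± 0.09, adjusted p = 0.672). Kcnh8, a slow ELK-type channel gene, rose from 5.93 and 4.35 CPM to 57.6 and 69.9 CPM (log2 difference 3.73 ± 0.21 (SE), adjusted p = 1.30e-07), and Kcnh7 was slightly higher at 540.0 and 574 CPM (0.36 ± 0.09, adjusted p = 0.00868). Kcnh1 fell from 2.97 and 9.09 CPM to 1.28 and 1.496 CPM (log2 difference -1.96 ± 0.56 (SE), adjusted p = 0.0145), as did Kcnh5 (-0.50 ± 0.14, adjusted p = 0.0142). Neither was called by DESeq2 (adjusted p = 0.0561 and 0.114).

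Kcnk2 returned to 194 and 189 CPM in newborn neurons (log2 difference 1.80 ± 0.10 (SE), adjusted p = 1.24e-07), below its radial glia level, and Kcnk10 moved the other way, from 266 and 271 CPM to 131 and 147 CPM (log2 difference -0.84 ± 0.09 (SE), adjusted p = 2.28e-05). Kcnk2 and Kcnk10 thus changed in opposite directions in this step. Kcnj10 fell further, to 1.28 and 0.374 CPM (log2 difference -3.36 ± 0.50 (SE), adjusted p = 2.38e-04), and Kcnj11 rose to 19.2 and 14.2 CPM (log2 difference 1.74 ± 0.30 (SE), adjusted p = 7.30e-04). Among auxiliary genes, Kcne1l fell from 25.6 and 31.2 CPM to 2.77 and 1.87 CPM (log2 difference -3.50 ± 0.28 (SE), adjusted p = 2.37e-06), and the KChIP genes Kcnip1 and Kcnip3 fell too, with log2 differences of -1.91 ± 0.14 and -0.61 ± 0.16 (adjusted p = 1.19e-06 and 0.00917), Kcnip3 without a call by DESeq2 (adjusted p = 0.0547). Kcnip4 was not called (0.25 ± 0.23, adjusted p = 0.399, or 0.00571 with the library as a block).

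Between newborn and later excitatory neurons, 27 members were higher and 11 lower in later neurons of 54 tested (all genes: 20.7% higher, 17.4% lower). The members' median log2 difference was 0.74 beside 0.01 over all 13221 genes. Kcnq5 and Kcnq3 changed in opposite directions, the former rising and the latter falling. Of the leak channels 4 of 6 tested rose, of the silent modifiers 3 of 4 and of the sodium-activated channels both, of which DESeq2 did not call Kcnk12, Kcns3 and Kcnt1 (adjusted p = 0.0829, 0.259 and 0.189). In newborn neurons Kcng3, Kcnv1, Kcns3, Kcnt1, Kcnk9, Kcnj2 and Kcna6 had few UMIs. They passed the filter on low counts only through later neurons, so only a rise could be called. The counts and the median include these genes and are in part set by the filter. Kcnc2, Kcnd2 and Kcnn3 fell.

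Kcnq5 (chr1:21398399-21962650) gave 40.4 and 33.4 CPM in radial glia, 89.6 and 70.3 CPM in newborn, 365 and 321 CPM in intermediate and 1044 and 956 CPM in later neurons (log2 difference 3.70 ± 0.12 (SE), adjusted p = 7.37e-08 against newborn). At 2000 UMIs per cell it was seen in 49.6% (Wilson interval 47.2 to 52.0%) of later neurons, 9.16% (Wilson interval 7.71 to 10.9%) of newborn neurons and 0.535% of erythroid cells (unthinned 64.9%, 18.3% and 2.15%). Kcnq3 held 896 and 908 CPM in intermediate neurons and 489 and 439 CPM in later ones (log2 difference -0.87 ± 0.08 (SE), adjusted p = 3.42e-05). In both libraries Kcnq3 was therefore the lowest and Kcnq5 the highest in later neurons among the 3 excitatory stages.

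Kcnc2 fell to 13.3 and 11.2 CPM (log2 difference -3.51 ± 0.11 (SE), adjusted p = 4.45e-08), passing through 52.0 and 52.2 CPM in intermediate neurons. Kcnd2 fell to 268 and 264 CPM (log2 difference -0.96 ± 0.07 (SE), adjusted p = 1.04e-05), and Kcnb2 from 554 and 583 CPM to 428 and 468 CPM (log2 difference -0.29 ± 0.07 (SE), adjusted p = 0.0134). Kcna6 reached 5.56 and 5.66 CPM from 0.640 and 0.561 CPM (log2 difference 3.24 ± 0.40 (SE), adjusted p = 2.21e-04), and Kcna1 8.98 and 7.71 CPM (0.98 ± 0.24, adjusted p = 0.0121, or 0.0874 and no call with DESeq2). Of the silent modifiers, Kcng3 reached 7.71 and 8.19 CPM from 0.640 and 0.374 CPM (log2 difference 3.997 ± 0.39 (SE), adjusted p = 5.09e-05) and Kcnv1 4.80 and 6.99 CPM from 0.853 and 0.561 CPM (log2 difference 3.10 ± 0.44 (SE), adjusted p = 5.39e-04).

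Kcnma1 continued its rise to 194 and 201 CPM (log2 difference 2.25 ± 0.07 (SE), adjusted p = 6.61e-08) and Kcnt2 to 57.3 and 55.5 CPM (log2 difference 2.11 ± 0.17 (SE), adjusted p = 1.30e-05). Kcnn3 fell to 23.0 and 23.5 CPM (log2 difference -2.43 ± 0.10 (SE), adjusted p = 1.64e-07) and Kcnn1 to 3.41 and 4.70 CPM (-1.13 ± 0.25, adjusted p = 0.00673), while Kcnn2 was not called at 185 and 162 CPM (adjusted p = 0.446). Of the 3 small-conductance genes, 2 thus fell and the other had no call. Kcnt1, the other sodium-activated gene, rose by 1.91 ± 0.51 (adjusted p = 0.0177, but no call with DESeq2), and the BK beta genes Kcnmb2 and Kcnmb4 rose by 1.43 ± 0.11 and 0.73 ± 0.09 (adjusted p = 1.30e-05 and 2.80e-04).

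Among inward rectifiers, Kcnj3 rose to 162 and 167 CPM (log2 difference 1.54 ± 0.08 (SE), adjusted p = 8.04e-07). Kcnj2 (chr11:111066164-111076825), the strong rectifier that clamps the resting potential, had 129 UMIs in later and 2 in newborn neurons (ratio 39.9, exact counting interval 10.8 to 333, adjusted p = 7.83e-05). Kcnj11 fell to 10.2 and 7.47 CPM (-0.86 ± 0.22, adjusted p = 0.0144). The acid-sensitive leak channel Kcnk9 had 62 UMIs in later and 1 in newborn neurons (ratio 38.4, exact counting interval 6.64 to 1540.2, adjusted p = 5.12e-04), and its relative Kcnk3 rose by 2.92 ± 0.41 (adjusted p = 5.39e-04). Kcnk1 rose by 2.86 ± 0.27 and Kcnk12 by 1.45 ± 0.37 (adjusted p = 4.48e-05 and 0.0132, the latter with no call by DESeq2), and Kcnk2 fell to 128 and 152 CPM (-0.40 ± 0.08, adjusted p = 0.00566).

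Of the auxiliary genes, Kcnip4 rose to 362 and 486 CPM from 162 and 117 CPM (log2 difference 1.65 ± 0.17 (SE), adjusted p = 5.98e-05) and Kcnip1 to 41.0 and 37.6 CPM (1.49 ± 0.13, adjusted p = 1.89e-05), whereas Kcnip3 fell to 15.7 and 18.4 CPM (-0.95 ± 0.13, adjusted p = 3.52e-04). Kcnh7, with 532 and 577 CPM, and Kcnc1, with 29.6 and 29.3 CPM, were not called (adjusted p = 0.662 and 0.825). The stage between, which entered no test, lay between newborn and later levels in both libraries for 24 of the 27 members that were higher and 8 of the 11 that were lower. The exceptions were Kcna4, Kcnip4, Kcnh3, Kcnk2, Kcnh8 and Kcnq3, named after their values were seen. Cells of this stage were gated by a marker balance between those of the newborn and later stages, and the members were called on the same libraries. The order is thus largely set in advance, and its share over all called genes was not counted. DESeq2 called 21 members higher and 11 lower in this comparison, and its share of all genes was not counted.

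**Figure D2:**
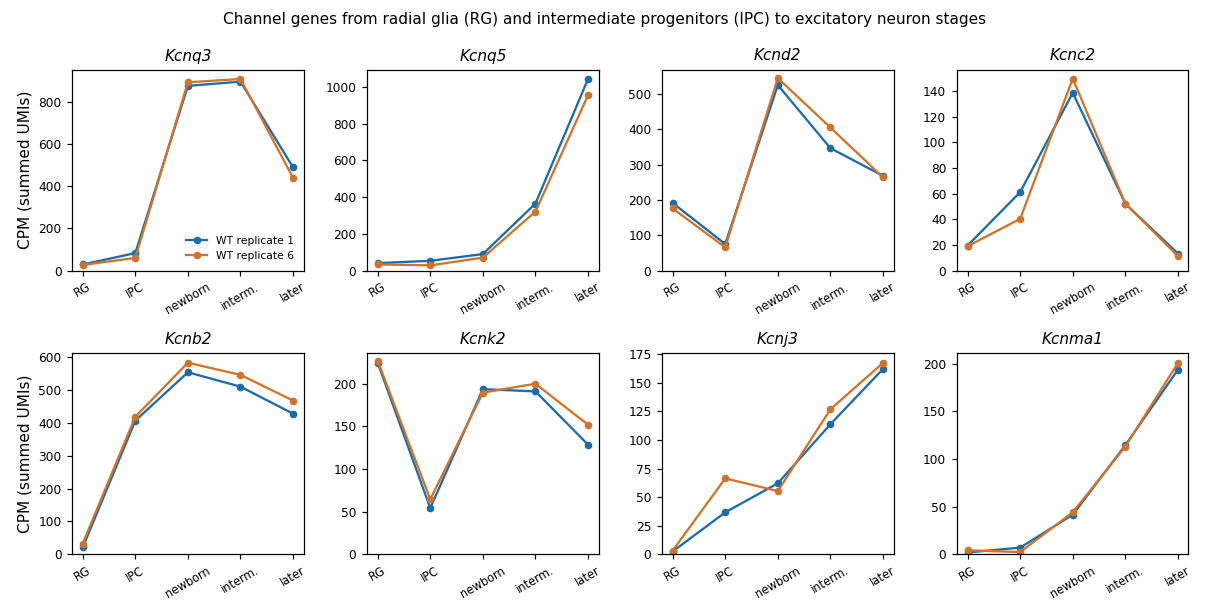
Levels of 8 channel genes in CPM (vertical axis, starting at 0) from radial glia (RG) and intermediate progenitors (IPC) to the newborn, intermediate and later excitatory stages (horizontal axis), with 1 line per library. Kcnq3 is highest at the newborn and intermediate stages and Kcnq5 at the later stage, Kcnc2 peaks in newborn neurons, Kcnk2 dips in IPCs, and both libraries trace the same course.

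Interneurons, which migrate into the cortex from the ganglionic eminences, were compared with later excitatory neurons to ask which channels differ between these classes. The earlier excitatory stages were not compared with interneurons, so a difference need not hold for excitatory neurons in general. In newborn neurons Kcnq5 gave 89.6 and 70.3 CPM, beside 36.6 and 83.9 CPM in interneurons. For Kcnq3 the levels were 875 and 892 CPM beside 116 and 96.5 CPM. Of 57 members tested, 16 were higher and 26 lower in interneurons (all genes: 21.0% higher, 21.5% lower), with a median of -0.36 beside -0.02 over 13295 genes. The median depth per cell was 3730.0 and 3304 UMIs in interneurons and 10170.0 and 8710.5 in later excitatory neurons, and 6 erythroid markers, which reach other cells as free RNA, summed to 3565 and 7028 CPM and 1297 and 3192 CPM. The part of either in the differences was not tested. Kcnc2, Kcnd3 and the KChIP and BK beta genes Kcnip1 and Kcnmb2 were higher, and Kcnq5, Kcnq3, Kcnj3, Kcnj11, Kcna1 and Kcnip4 lower.

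Kcnc2 (chr10:112269898-112466304), known from fast-spiking cells, gave 410.3 and 499 CPM in interneurons and 13.3 and 11.2 CPM in later excitatory neurons (log2 difference 5.14 ± 0.14 (SE), adjusted p = 2.59e-08). At 2000 UMIs per cell it was seen in 34.1% (Wilson interval 31.4 to 36.9%) of interneurons, 1.87% (Wilson interval 1.32 to 2.64%) of later excitatory and 0.372% of striatal neurons, against 0.802% of erythroid cells (unthinned 41.0%, 6.90%, 1.43% and 0.858%). The share in striatal neurons did not exceed that background. RefSeq lists 4 start positions for Kcnc2 in this build, and the counts do not tell them apart. The window of the first, from 250 bases before to 50 after the start, is shown because this gene had the largest difference of all members tested between striatal neurons and interneurons, with capitals marking its match to the GC box GGGCGG.

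Kcnc2, chr10:112269767-112270066, plus strand: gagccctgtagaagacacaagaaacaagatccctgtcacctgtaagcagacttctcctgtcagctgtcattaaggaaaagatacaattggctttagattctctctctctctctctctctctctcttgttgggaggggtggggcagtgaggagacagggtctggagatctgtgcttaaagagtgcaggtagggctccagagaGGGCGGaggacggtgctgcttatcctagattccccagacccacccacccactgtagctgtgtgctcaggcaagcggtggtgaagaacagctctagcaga

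A GC box on either strand stood in 35.7% of the 32851 promoter windows of the table and in 46 of the 95 windows of the 70 members found there. The E-box CAGATG and the TATA box TATAAA, neither of which overlaps the GC box, were not in this window.

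Kcnd2 and Kcnd3 were higher in interneurons, at 603 and 531 CPM (log2 difference 1.02 ± 0.10 (SE), adjusted p = 6.09e-05) and 191 and 169 CPM against 51.2 and 46.9 CPM (log2 difference 1.80 ± 0.10 (SE), adjusted p = 1.94e-06). Kcnc1 was higher at 54.1 and 56.4 CPM against 29.6 and 29.3 CPM (log2 difference 0.84 ± 0.11 (SE), adjusted p = 2.95e-04). Kcna1 had 0 UMIs in interneurons and 135 in later excitatory neurons, at least 14.9-fold lower against the same floor (adjusted p = 2.50e-04). Kcnb2 was lower, with a log2 difference of -0.61 ± 0.09 (adjusted p = 7.86e-04). The voltage-gated group therefore split, with 4 genes higher and 5 lower of 11 tested, 2 of the 5 without a call by DESeq2.

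The silent modifiers also split. Kcns2 was higher at 5.59 and 5.20 CPM against 0.379 and 0.361 CPM (log2 difference 3.71 ± 0.46 (SE), adjusted p = 2.64e-04), while Kcng1 and Kcnv1 had 3 UMIs each in interneurons against 102 and 96 (ratio 11.3, exact counting interval 3.75 to 55.6, and ratio 10.6, exact counting interval 3.52 to 52.3). Their adjusted p were 0.00572 and 0.00151. Kcnq5 was lower in interneurons at 36.6 and 83.9 CPM (log2 difference -4.13 ± 0.30 (SE), adjusted p = 8.07e-06) and Kcnq3 at 116 and 96.5 CPM (log2 difference -2.20 ± 0.12 (SE), adjusted p = 1.65e-06). Of the EAG family, Kcnh4 and Kcnh8 were higher (3.41 ± 0.31 and 2.20 ± 0.11, adjusted p = 4.20e-05 and 7.62e-07), and Kcnh7 gave 419 and 554 CPM (adjusted p = 0.119, or 6.56e-04 with the library as a block).

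The BK pore and its beta subunit went in opposite directions. Kcnma1 was lower in interneurons at 102 and 98.8 CPM (log2 difference -1.05 ± 0.08 (SE), adjusted p = 1.53e-05), and Kcnmb2 was higher at 241 and 285 CPM against 52.6 and 56.1 CPM (log2 difference 2.20 ± 0.10 (SE), adjusted p = 4.00e-07), as was Kcnmb3 (2.68 ± 0.55, adjusted p = 0.00444). The KChIP genes went apart as well, Kcnip1 to 170.5 and 198 CPM (log2 difference 2.16 ± 0.10 (SE), adjusted p = 5.51e-07) and Kcnip4 down to 90.3 and 132 CPM (log2 difference -2.004 ± 0.18 (SE), adjusted p = 3.69e-05). Kcnt2 was lower (-0.97 ± 0.11, adjusted p = 1.41e-04), Kcnn3 was lower by more (-1.78 ± 0.23, adjusted p = 3.21e-04), and Kcnn2 gave 245 and 209.8 CPM (log2 difference 0.32 ± 0.11, adjusted p = 0.0531, or 2.34e-04 with the block).

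Kcnj3 was lower in interneurons at 33.6 and 29.0 CPM (log2 difference -2.47 ± 0.10 (SE), adjusted p = 2.84e-07). Kcnj2 had 3 UMIs (later over interneurons ratio 14.3, exact counting interval 4.77 to 70.0, adjusted p = 2.89e-04) and Kcnj11 2 (ratio 23.7, exact counting interval 6.44 to 198, adjusted p = 3.01e-04). The leak channel Kcnk13 had 30 UMIs in interneurons and 3 in later excitatory neurons (ratio 30.2, exact counting interval 9.38 to 154, adjusted p = 1.56e-04). Microglia, where this gene is known to act, had 34 UMIs of it (226 and 0 CPM, all in replicate 1), and the 8 microglial markers summed to 91.4 and 57.2 CPM in interneurons and 46.5 and 44.1 CPM in later excitatory neurons. Their part in the Kcnk13 difference was not tested. The other leak channels called were lower, namely Kcnk1, Kcnk9, Kcnk10 and Kcnk12 (-1.41 ± 0.26, -2.80 ± 0.59, -0.76 ± 0.08 and -2.63 ± 0.58). Kcnj10 stood at 0.885 and 0.120 CPM in later excitatory neurons, 0.746 and 0 CPM in interneurons and 2.58 and 0 CPM in striatal neurons, too low to be tested. Kcnk2 was not called at 151 and 160.0 CPM (adjusted p = 0.521).

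Striatal neurons were compared with interneurons, both GABAergic. Of 40 members tested, 7 were higher and 11 lower in striatal neurons (all genes: 5.61% higher, 7.05% lower), with a median of -0.03 beside -0.01 over 10745 genes. The count was 11 with DESeq2 and 8 with no filter on low counts, the share of all genes not being counted under either setting. Kcnc2 with Kcnip1, Kcnip4, Kcnmb2 and Kcnn2 were lower, and Kcnd2, Kcnk10, Kcnmb4 and Kcnh1 higher.

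Kcnc2 gave 3.87 and 4.04 CPM in striatal neurons from 6 UMIs, against 410.3 and 499 CPM in interneurons (log2 difference -6.83 ± 0.25 (SE), adjusted p = 1.16e-07). Kcnd2 reached 951 and 965 CPM against 603 and 531 CPM (log2 difference 0.74 ± 0.13 (SE), adjusted p = 0.00327), its highest level among the classes, whereas Kcnd3 was lower (-1.30 ± 0.16, adjusted p = 4.87e-04). The silent modifier Kcns3 had 1 UMI in striatal neurons and 43 in interneurons (ratio 12.1, exact counting interval 2.07 to 490.4, adjusted p = 0.0349). Kcnq3 was higher at 137 and 209 CPM (log2 difference 0.68 ± 0.19 (SE), adjusted p = 0.0397), a call lost with the library as a block (adjusted p = 0.0517) and with DESeq2 (adjusted p = 0.155).

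Kcnh7 was lower in striatal neurons than in interneurons, at 168 and 225 CPM against 419 and 554 CPM (log2 difference -1.32 ± 0.17 (SE), adjusted p = 6.47e-04), and Kcnh1 higher at 19.4 and 14.8 CPM against 3.73 and 3.34 CPM (log2 difference 2.24 ± 0.43 (SE), adjusted p = 0.00676). Striatal neurons were the neuron class with the lowest Kcnh7 level in both libraries. Kcnh2 was higher as well (2.12 ± 0.56, adjusted p = 0.0334), a call not made with the block (adjusted p = 0.0603) or by DESeq2 (adjusted p = 0.226).

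Kcnn2 was lower at 64.5 and 43.1 CPM against 245 and 209.8 CPM (log2 difference -2.09 ± 0.19 (SE), adjusted p = 5.09e-05). The BK pore Kcnma1 was not called at 123 and 137 CPM (adjusted p = 0.109), while its beta subunits crossed over, Kcnmb2 being lower at 36.1 and 51.2 CPM (log2 difference -2.61 ± 0.18 (SE), adjusted p = 6.86e-06) and Kcnmb4 higher at 67.1 and 63.3 CPM against 33.2 and 34.5 CPM (log2 difference 0.93 ± 0.18 (SE), adjusted p = 0.00713). Kcnip4 was lower at 3.87 and 14.8 CPM (log2 difference -3.59 ± 0.38 (SE), adjusted p = 1.58e-04) and Kcnip1 at 24.5 and 43.1 CPM (log2 difference -2.46 ± 0.21 (SE), adjusted p = 2.94e-05), so Kcnd2 was higher and these 2 KChIP genes were lower in the same class. Kcnab1, a Kvbeta gene, was higher (0.75 ± 0.20, adjusted p = 0.0344), and of the leak channels Kcnk10 was higher at 206 and 189 CPM (log2 difference 1.04 ± 0.13 (SE), adjusted p = 3.79e-04) and Kcnk2 lower (-0.51 ± 0.13, adjusted p = 0.0264). DESeq2 made none of the Kcnmb4, Kcnab1, Kcnk2 and Kcns3 calls (adjusted p = 0.102, 0.351, 0.391 and 0.291).

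**Figure D3:**
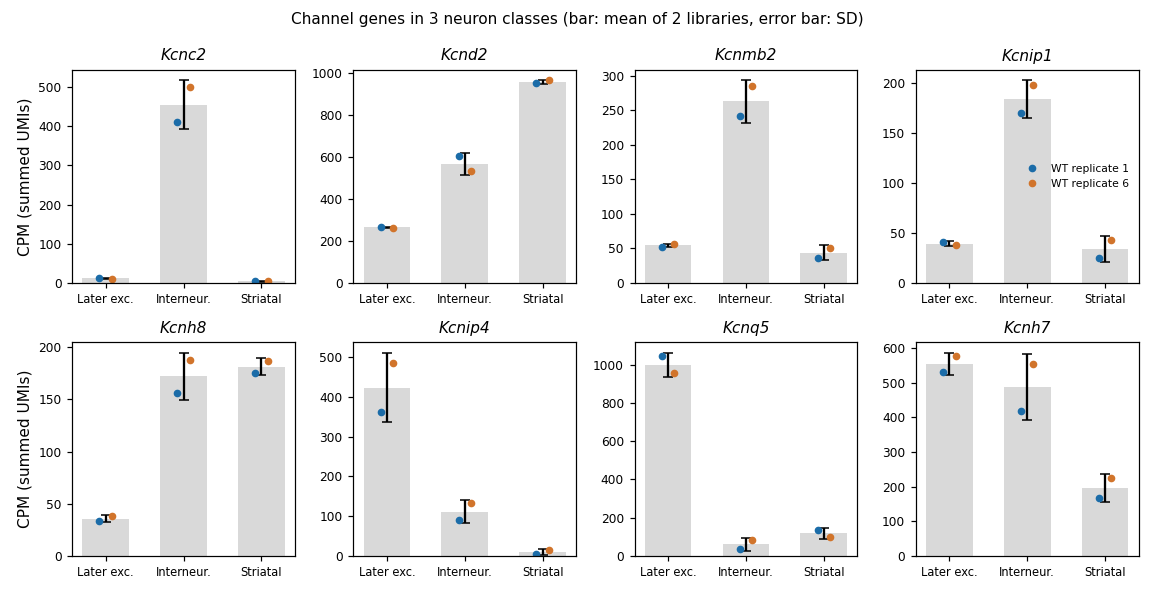
Levels of 8 channel genes in CPM (vertical axis, starting at 0) in later excitatory neurons, interneurons and striatal neurons, with bars for the mean of 2 libraries, error bars for the SD and points for each library. Kcnc2, Kcnmb2 and Kcnip1 stand highest in interneurons, Kcnd2 in striatal neurons, and Kcnip4 and Kcnq5 in later excitatory neurons, with no overlap between the library values in these 6 genes.

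Mural cells, the pericytes and smooth muscle cells that wrap vessels, were compared with the endothelial cells that line them. Of 13 members tested, 8 were higher and 3 lower in mural cells (all genes: 16.7% higher, 16.6% lower), with a median of 2.90 beside 0.00 over 8368 genes. The other 83 members were not tested. Kcnj8, Kcnq5 and Kcne4, with 0 UMIs in endothelial cells, passed the filter only through mural cells, and Kcnj2 only through endothelial cells. The counts and the median are therefore no result about the family. With no filter on low counts 19 members of 60 were called, and with all classes in 1 fit 18 of 65, the share of all genes not being counted under either setting. The pair Kcnj8 and Abcc9, pore and regulatory subunit of the vascular ATP-sensitive channel, marked mural cells, and Kcnq1, Kcnj2 and Kcna6 were higher in endothelial cells.

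Kcnj8 (chr6:142564837-142571614) gave 710.0 and 743 CPM in mural cells from 918 UMIs and 0 in endothelial cells, at least 269.7-fold higher against a floor of 3 counts over both libraries (adjusted p = 2.66e-10). At 2000 UMIs per cell it was seen in 73.6% (Wilson interval 65.7 to 80.2%) of 140 mural cells (unthinned 97.9%) and in 0 of 76 endothelial cells, which allows a share of up to 3.95%. It was seen in 0 of 374 erythroid cells and 0.181% of later excitatory neurons, the remaining classes having at most 0.269%. The partner gene Abcc9, which was chosen as a pathway gene and not by symbol, gave 1259.8 and 1514 CPM from 1743 UMIs against 0, at least 512-fold higher (adjusted p = 2.01e-10).

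Kcnj8 and Abcc9 (chr6:142587862-142702766) lie next to each other, 16247 bases apart. Their promoter windows from RefSeq (GRCm38.p6) are shown because the pair moved together. Capitals mark a match to the E-box CAGATG in Kcnj8 and to the GC box GGGCGG in Abcc9, both read on the opposite strand.

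Kcnj8, chr6:142571565-142571864, minus strand: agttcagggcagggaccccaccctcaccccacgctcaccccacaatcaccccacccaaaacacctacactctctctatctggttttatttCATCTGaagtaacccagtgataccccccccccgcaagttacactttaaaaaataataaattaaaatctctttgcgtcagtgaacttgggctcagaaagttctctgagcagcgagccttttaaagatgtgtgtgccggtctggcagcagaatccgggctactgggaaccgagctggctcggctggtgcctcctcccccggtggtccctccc

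Abcc9, chr6:142702225-142702524, minus strand: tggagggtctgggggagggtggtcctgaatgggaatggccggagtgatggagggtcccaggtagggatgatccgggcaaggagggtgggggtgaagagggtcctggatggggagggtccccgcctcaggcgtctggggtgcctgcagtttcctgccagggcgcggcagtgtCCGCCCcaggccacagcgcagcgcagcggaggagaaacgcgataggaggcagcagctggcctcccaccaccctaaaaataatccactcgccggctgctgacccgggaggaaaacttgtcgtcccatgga

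The window of Kcnj8 held 53.3% G and C with 9 CG pairs, and that of Abcc9 65.7% with 16, where the median window of the table held 52.7% and 7. The E-box stood in 17.2% of all windows and in 20 of the 95 member windows, and the TATA box, in neither of these windows, in 13.6% and 5.

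Kcnq5 gave 357 and 232 CPM in mural cells and 0 in endothelial cells, at least 111-fold higher (adjusted p = 7.44e-09). Outside the excitatory lineage, mural cells thus held its highest level, and the share at 2000 UMIs was 34.3% (unthinned 58.6%). Excitatory markers summed to 67.6 and 64.9 CPM in mural cells against 3281 and 3209 CPM in later excitatory neurons, while Kcnq3 gave 2.94 and 0 CPM in mural cells. Kcnq1, which carries a slow current in heart and epithelia, was lower at 19.1 and 10.3 CPM against 99.5 and 74.6 CPM (log2 difference -2.58 ± 0.36 (SE), adjusted p = 2.58e-05). The noncoding Kcnq1ot1 lies within the span of Kcnq1, so that their reads may not be fully told apart, and was not called (172 and 171 CPM against 193 and 205 CPM, adjusted p = 0.346).

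Kcnd2 gave 160.2 and 236 CPM in mural cells and 3 UMIs in endothelial cells (ratio 72.6, exact counting interval 24.5 to 354, adjusted p = 1.61e-08), and Kcnip4, a Kcnd partner, 63.2 and 44.4 CPM against 3.16 and 6.22 CPM (log2 difference 3.50 ± 0.50 (SE), adjusted p = 3.65e-05). Kcnt2 was higher at 67.6 and 51.3 CPM against 6.32 and 4.15 CPM (log2 difference 3.39 ± 0.47 (SE), adjusted p = 2.44e-05). The auxiliary gene Kcne4 had 26 UMIs in mural cells and 0 in endothelial cells (at least 7.64-fold higher, adjusted p = 2.72e-04). In the other direction, Kcnj2 had 33 UMIs in endothelial cells and 0 in mural cells (at least 12.5-fold lower in mural cells, adjusted p = 3.10e-05), and Kcna6 24 against 2 (ratio 13.6, exact counting interval 3.38 to 119, adjusted p = 5.72e-04). Kcnab1 was higher in mural cells (1.92 ± 0.51, adjusted p = 0.00727), a call that DESeq2 did not make (adjusted p = 0.127). Kcnh7, Kcnc1, Kcnc2, Kcnj10, Kcnk2, Kcnma1, Kcnip1, Kcnn2 and Kcnq3 did not pass the filter on low counts here.

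**Figure D4:**
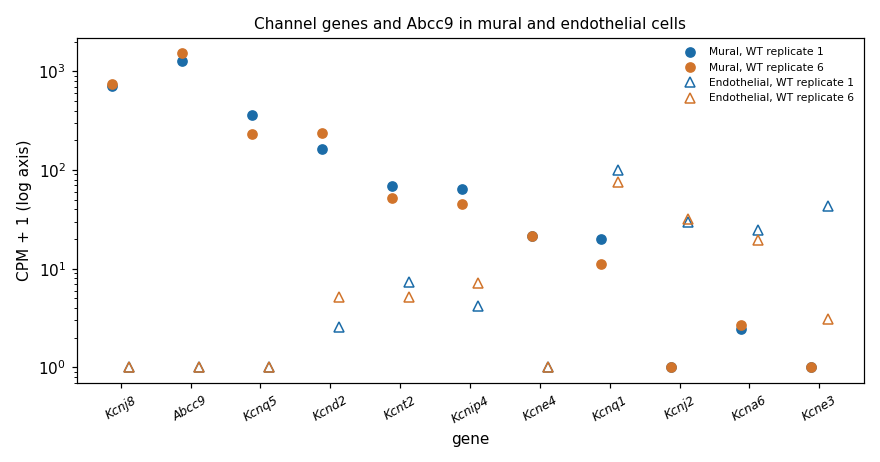
Levels in CPM plus 1 (vertical log axis) of 10 channel genes and Abcc9 (horizontal axis) in mural cells (filled circles) and endothelial cells (open triangles), coloured by library. Kcnj8, Abcc9, Kcnq5 and Kcne4 lie at 1 (no UMI) in both endothelial libraries, Kcnj2 and Kcne3 at 1 in both mural libraries, and Kcne3 differs widely between the endothelial libraries.

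Every member called in any of the 6 comparisons had the same direction in both libraries. The calls were made on these same libraries and nearly require this, so it is no separate support for them.

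**Figure D5:**
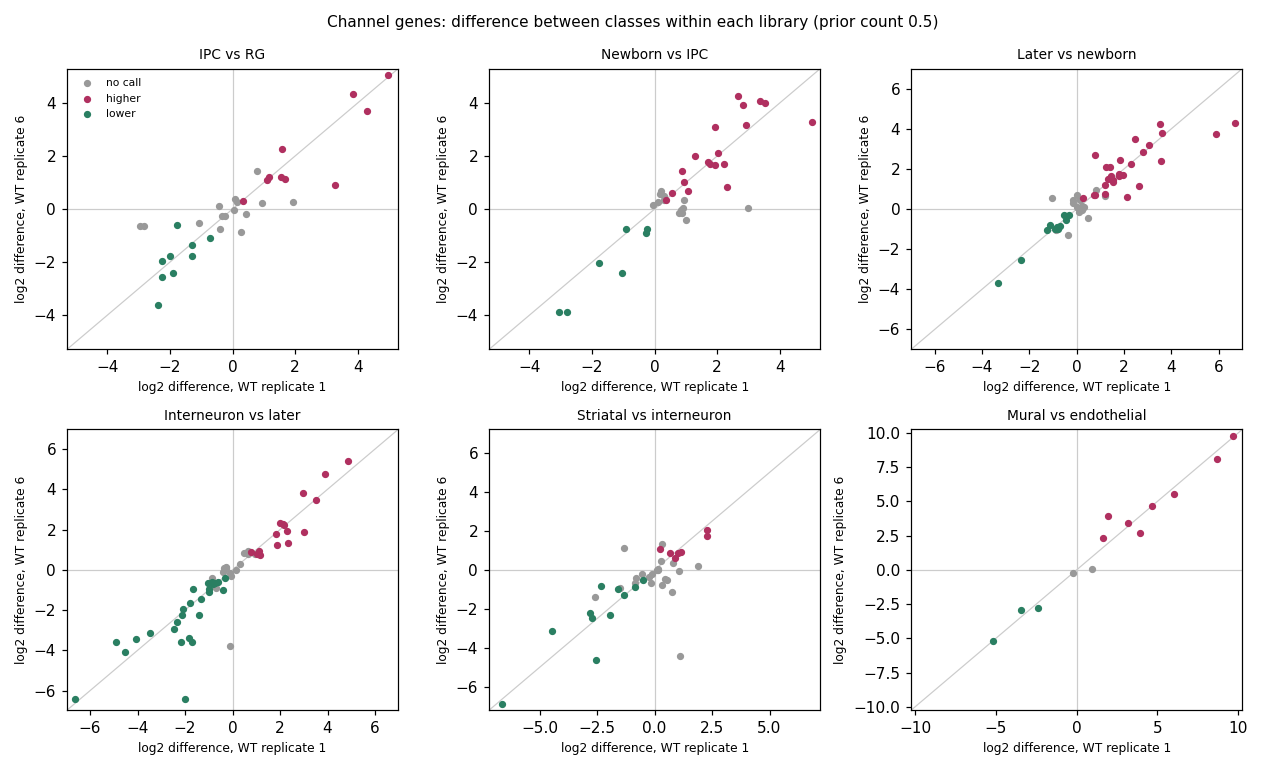
Log2 difference between classes within WT replicate 1 (horizontal axis) and within WT replicate 6 (vertical axis) for each member tested, with a panel per comparison and colours for members called higher, lower or not called (prior count 0.5, so genes at 0 in a class have no true fold here). All called members lie in the upper right or lower left quadrant, that is, on the same side of 0 in both libraries, which a call on these libraries nearly requires.

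The 26 partner genes of the pathway, which code for pumps, scaffolds and other proteins that work beside these channels, were followed in the same fits. From IPCs to newborn neurons 10 of 19 tested rose and 4 fell (all genes: 23.3% up and 24.7% down). From newborn to later neurons 10 of 22 rose and 5 fell (all genes: 20.7% up and 17.4% down). Between IPCs and radial glia 2 of 13 were higher and 5 lower (all genes: 15.4% higher and 18.7% lower). Ank3, which anchors Kcnq channels at the axon initial segment, went from 40.9 and 49.6 CPM in radial glia to 183 and 210.3 CPM in IPCs (log2 difference 2.17 ± 0.14 (SE), adjusted p = 4.35e-06) and 864 and 910.2 CPM in newborn neurons (log2 difference 2.28 ± 0.10 (SE), adjusted p = 2.84e-08). Abcc8, the regulatory partner of Kcnj11, rose from 1.85 and 4.74 CPM to 47.6 and 55.0 CPM (log2 difference 4.07 ± 0.26 (SE), adjusted p = 3.81e-07) and was lower in interneurons than in later excitatory neurons (-5.12 ± 0.27, adjusted p = 1.28e-06). It lies 3570 bases from Kcnj11 on chromosome 7, and both genes of this pair were higher in newborn neurons than in IPCs and lower in interneurons than in later neurons.

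Dpp6 and Dpp10, transmembrane partners of Kcnd channels, were higher in interneurons than in later excitatory neurons, by 1.09 ± 0.11 and 1.99 ± 0.18 on the log2 scale (adjusted p = 9.01e-05 and 4.17e-05), as Kcnd2 was. In other comparisons their direction was not that of Kcnd2. Dpp10 went from 3.41 and 2.80 CPM in newborn to 209.6 and 151 CPM in later neurons (log2 difference 5.91 ± 0.24 (SE), adjusted p = 1.84e-07) while Kcnd2 fell, and in striatal neurons it was lower than in interneurons, at 6.45 and 8.09 CPM against 643 and 870.4 CPM (log2 difference -6.70 ± 0.26 (SE), adjusted p = 1.54e-07), while Kcnd2 was higher. Dpp6 gave 451 and 528 CPM in interneurons and 204 and 190.0 CPM in striatal neurons (log2 difference -1.33 ± 0.14 (SE), adjusted p = 1.15e-04). Between striatal neurons and interneurons 2 of 17 partners tested were higher and 6 lower (all genes: 5.61% higher and 7.05% lower). Between interneurons and later excitatory neurons 9 of 22 were higher and 6 lower (all genes: 21.0% higher and 21.5% lower). Between mural and endothelial cells 4 of 7 partners tested were higher and 1 lower, Abcc9 among the former (all genes: 16.7% higher and 16.6% lower).

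Of the noncoding RNAs, Kcnq1ot1, expressed from the paternal chromosome at the Kcnq1 locus, gave 93.5 and 95.5 CPM in radial glia, 196 and 195 CPM in IPCs (log2 difference 1.10 ± 0.11 (SE), adjusted p = 5.93e-05), 217 and 232 CPM in later excitatory neurons and 103 and 101 CPM in striatal neurons (log2 difference -0.87 ± 0.13 (SE), adjusted p = 0.00142 against interneurons). Kcnmb4os2, which overlaps an end of Kcnmb4, was higher in newborn neurons at 15.8 and 11.97 CPM against 3.34 and 7.12 CPM in IPCs (log2 difference 1.52 ± 0.35 (SE), adjusted p = 0.00395), where Kcnmb4 itself was higher as well, and both were higher again in later neurons. Kcnmb4os1 had 8 UMIs in all gated classes and was not tested.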

How the data were processed

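The authors prepared droplet libraries (10x 3′, dual index) and deposited filtered count matrices, which hold whole-number UMI counts per gene and cell made with Cell Ranger 7.0.0 per the submitters' processing notes, on build mm10. Whether intronic reads were counted is not given in the sources used here. Barcodes had to hold 1500 to 60000 UMIs, less than 10% of them mitochondrial, and the highest Scrublet-type doublet scores were removed at a rate of 0.8% per 1000 cells (920 and 857 cells). Kept cells had medians of 6545 and 6347.5 UMIs. They were gated by marker genes, and UMIs were summed by library and class. Excitatory neurons with at least 75% newborn markers among their stage marker UMIs were called newborn, and those with at most 10% later.

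The sums of each pair of classes were compared with edgeR 4.0.16 (quasi-likelihood test, TMM scaling, edgeR's filter on low counts) in R 4.3.3, tested on simulated data first, with log2 differences and their standard errors from the fit. DESeq2 1.42.0 was an alternative, beside no TMM scaling, no filter, the library as a block, all classes in 1 fit, doublets kept, stricter cell filters and gates, and non-cycling progenitors. Other steps used limma 3.58.1, Python 3.11.15, numpy 2.4.6, scipy 1.17.1, pandas 2.3.3 and scikit-learn 1.9.0. Shares of cells were taken after thinning to 2000 UMIs, with 95% Wilson intervals. Sums of the same library come from the same cell suspension, and their deviations correlated at 0.121 to 0.321 over genes in the 6 comparisons.

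The members, gene lists and tests were chosen with earlier results of these data known. Named were, per comparison, up to 6 largest rises and 6 largest falls among members called, in the same direction in both libraries and with at least 20 UMIs in the higher class, and always Kcnq3, Kcnd2, Kcnip4, Kcnh7, Kcnma1, Kcnn2, Kcnt2, Kcnc1, Kcnc2, Kcnip1, Kcnj8, Kcnj10, Kcnk2 and Kcnj2. A few genes that this rule names are counted in the totals but not reported here. Other members are named to complete a family and were chosen after their values were seen.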

Additional observations from a re-analysis of the deposited data

How the results depend on the processing

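Among the values of named genes recomputed under the alternatives, 1090 were counted as the same. The threshold was missed by 32 and newly passed by 8, 27 (within a single library, with no test) moved, and none that was called changed direction. Those counted as the same include 100 values without replicate 1 and 99 without replicate 6, which had no test. These were held only to the spread of the 2 libraries, which they nearly had to meet. The rest kept their side of the threshold and, where called, their direction. The count of members called between striatal neurons and interneurons was 18, but 11 with DESeq2 and 8 with no filter on low counts. Between mural and endothelial cells it was 11, but 19 with no filter and 18 with all classes in 1 fit. The cause was not tested, other than that these last settings tested 60 and 65 members in place of 13. DESeq2 called 14 members between IPCs and radial glia in place of 19. Shares of all genes called were counted for the main fits only, so the counts under other settings have no background beside them. With the library as a block (replicate block), the counts were 21 in place of 19 between IPCs and radial glia, 30 in place of 26 between newborn neurons and IPCs, 41 in place of 38 between later and newborn neurons, 46 in place of 42 between interneurons and later neurons, 16 in place of 18 between striatal neurons and interneurons, and 11 in both fits between mural and endothelial cells. Of the values that moved, 13 did so without replicate 1 and 14 without replicate 6. Without TMM scaling the median log2 difference of all genes between newborn neurons and IPCs was -0.11 in place of 0.00. Thinning to 2000 UMIs moved 105 shares of cells beyond their interval and left 71 within it. With 2 libraries, 47 and 29 endothelial cells and 131 and 148 striatal neurons, low genes of these classes had few UMIs, and no call there does not show that levels were alike.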

Other observations

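Channel genes were also seen in classes outside the comparisons or too thinly to be tested. In the 33 microglia Kcnk13 gave 226 and 0 CPM, and the leak channel genes Kcnk6 and Kcnk12 gave 86.5 and 7.71 CPM and 39.9 and 7.71 CPM. The BK pore Kcnma1 gave 86.5 and 0 CPM there from 13 UMIs. In endothelial cells Kcne3, an auxiliary subunit, gave 42.6 and 2.07 CPM from 28 UMIs, and Kcna5 gave 11.1 and 12.4 CPM from 13 UMIs. In mural cells Kcnmb1, the BK beta subunit known from smooth muscle, gave 7.35 and 18.8 CPM from 16 UMIs and was at 0 in endothelial cells. Replicates 1 and 6 thus agreed for Kcna5 and lay apart for Kcne3 and the microglial genes, each from few cells, and none of these values was tested.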
